A study of Mus musculus with 4 samples.

Results

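The C-type lectin receptors studied here were Clec4a1, Clec4a2, Clec4a3, Clec4d, Clec4e, Clec4n and Clec7a, chosen by name as a family of pattern recognition receptors of myeloid cells. Of these 7 genes, 6 had count rows that were analysed, among 16308 genes in the tables, and Clec7a was not analysed here. The genes were chosen with earlier results of these data known, so their levels are given as descriptions. Leukocytes carrying CD45 were sorted from the muscularis externa, the outer muscle layer, of the small intestine after intestinal manipulation, a surgical handling of the gut that inflames this layer. The 4 single-cell libraries were made 24 h or 72 h after surgery from C57BL/6J wild-type (WT) mice and from mice of the strain Ccr2-/-; B6.129S4-Ccr2tm1Ifc/J (CCR2 KO), all 12 weeks of age. CCR2 is the chemokine receptor that brings monocytes out of the marrow and into inflamed sites, and every cell of the CCR2 KO animals carried the deletion. Each library pooled several mice and there was 1 library per group, so every difference below compares 2 libraries, has no replicate check and carries no test.

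C-type lectin receptors bind sugars and lipids on microbes and on dying cells. Clec4d (also called MCL), Clec4e (Mincle) and Clec4n (Dectin-2) have short tails and signal through the adaptor FcRγ, encoded by Fcer1g, to the kinase Syk and the Card9, Bcl10 and Malt1 module, which leads to cytokine and chemokine production. Clec4e binds the mycobacterial glycolipid cord factor and a nuclear protein that dead cells release, Clec4d partners with it, and Clec4n binds fungal mannans. Clec7a (Dectin-1) binds fungal beta-glucan through a receptor that carries its own signalling motif. Clec4a2 (DCIR) works the other way: its tail holds an inhibitory motif that recruits the phosphatases encoded by Ptpn6 and Ptpn11. Clec4a1 and Clec4a3 are close relatives of Clec4a2 in mice and are less well characterised.

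After 13 non-immune cells were set aside, 5798 cells remained: 1674, 1767, 1315 and 1042 in the 4 libraries. Here and below, 4 values in a row are given for WT and CCR2 KO at 24 h and then for WT and CCR2 KO at 72 h. The summed unique molecular identifiers (UMIs, 1 per captured transcript) ranged from 9736725 to 21206308 per library and 4 cell barcodes occurred in more than 1 library. Cells were clustered together into 19 clusters and gated into classes by marker genes, with the receptor genes left out of the clustering and of the marker lists. The monocyte and macrophage-like class (Mφ-like below) held 1273, 219, 868 and 148 cells, and the neutrophil-like class held 306, 1254, 191 and 580. Dendritic cell-like (DC-like) cells numbered between 60 and 152 per library, T, NK, B and innate lymphoid-like cells together between 26 and 141, and 180 cells in all were left unnamed. Median UMIs per cell were alike between libraries within Mφ-like cells (12602 to 15791) and lower in neutrophil-like cells (2047 to 3428). Ccr2 itself stood at 753 and 1062 CPM (UMIs of a gene for every 1000000 UMIs of its class) in WT Mφ-like cells and at 95.2 and 82.7 CPM in CCR2 KO Mφ-like cells at 24 h and 72 h. Brackets after a level are exact 95% Poisson intervals and brackets after a log2 difference are exact 95% conditional binomial intervals. All of them cover counting error only, and differences past a log2 size of 1, that is 2-fold, are counted as large.

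The 6 Clec4 genes lie within 368 kb of mouse chromosome 6 (GRCm38, GENCODE M21), in the order Clec4a1 (chr6:122921848-122934619), Clec4a3 (chr6:122952515-122969875), Clec4a2 (chr6:123106428-123143999), Clec4n (chr6:123229843-123247021), Clec4d (chr6:123262111-123275265) and Clec4e (chr6:123281789-123289870). Clec4e is the only one of the 6 on the minus strand, and 6.52 kb separate it from Clec4d. Clec7a lies 6.17 Mb further on, at chr6:129461591-129472779 on the minus strand. Because 10x reads come from the 3′ end, the last 500 bases of the annotated transcripts were compared: 5 of the 6 genes shared no stretch of 50 bases with another Clec4 gene, and Clec4a2 shared 19 of 885 such stretches with Clec4a4. The 4 sequences below are the 250 bases before the RefSeq transcript start on the coding strand, shown for 2 of the 3 members that were higher in neutrophil-like than in Mφ-like cells (Clec4d and Clec4e) and for the 2 members that were lowest in CCR2 KO relative to WT Mφ-like cells (Clec4a1 and Clec4a3). Capitals mark matches on either strand to GAGGAA, a core that sites of the myeloid factor PU.1 often hold, or to TTNCNNAA, a loose form of C/EBP sites.
Clec4d, chr6:123261857-123262106, plus strand: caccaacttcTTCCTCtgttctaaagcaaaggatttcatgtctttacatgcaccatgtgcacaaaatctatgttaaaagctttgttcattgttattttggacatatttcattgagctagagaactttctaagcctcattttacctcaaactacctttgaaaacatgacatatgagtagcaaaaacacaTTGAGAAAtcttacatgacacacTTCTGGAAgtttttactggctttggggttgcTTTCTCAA
Clec4e, chr6:123289872-123290121, minus strand: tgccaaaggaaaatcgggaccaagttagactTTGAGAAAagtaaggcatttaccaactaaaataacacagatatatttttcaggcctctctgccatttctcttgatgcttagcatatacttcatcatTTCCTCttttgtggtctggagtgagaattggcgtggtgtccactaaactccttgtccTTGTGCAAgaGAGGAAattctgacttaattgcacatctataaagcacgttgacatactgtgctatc
Clec4a1, chr6:122921598-122921847, plus strand: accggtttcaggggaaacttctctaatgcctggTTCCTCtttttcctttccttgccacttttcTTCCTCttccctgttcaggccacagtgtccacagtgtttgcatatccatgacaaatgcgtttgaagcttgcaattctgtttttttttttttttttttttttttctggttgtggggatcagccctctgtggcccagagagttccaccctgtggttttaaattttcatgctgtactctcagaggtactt
Clec4a3, chr6:122952265-122952514, plus strand: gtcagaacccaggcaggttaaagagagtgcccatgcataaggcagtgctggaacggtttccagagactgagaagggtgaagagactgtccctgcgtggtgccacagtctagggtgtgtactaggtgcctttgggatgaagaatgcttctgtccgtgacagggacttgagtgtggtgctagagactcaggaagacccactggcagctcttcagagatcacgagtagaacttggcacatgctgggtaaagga

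GAGGAA occurred in 23.3% of all 32851 RefSeq promoter windows of this length and TTNCNNAA in 36.8%, so a match in a window was common. TTNCNNAA matched 3 times before Clec4d, 2 times before Clec4e and 2 times (overlapping) before Clec4a2, and had no match before Clec4a1 and Clec4a3. Clec4a2, whose window is not shown, was higher in Mφ-like cells, so TTNCNNAA matches did not separate the members by class. GAGGAA matched 1 time before Clec4d and 2 times each before Clec4e and Clec4a1, and had no match before Clec4a2 and Clec4a3. Neither TGANTCA, an AP-1 core present in 6.75% of windows, nor an NF-κB core, present in 4.11%, matched in any of the 5 windows that could be searched, which included that of Clec4a2. A match describes the letters only and was not tied to binding.

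The receptors fell into 2 groups by the cells in which they were highest. In each library in which both classes were compared, Clec4a1, Clec4a2 and Clec4a3 were higher in Mφ-like than in neutrophil-like cells and Clec4d, Clec4e and Clec4n were higher in neutrophil-like cells, as the plot of levels by class shows. The size of the gap differed by gene and by library. In neutrophil-like against Mφ-like cells, 2 members were over 2-fold higher and 3 lower in WT 24 h, where 15.7% of all genes compared were higher and 50.2% lower. The counts were 3 higher and 2 lower in CCR2 KO 24 h (17.8% and 45.4% of genes), 3 and 3 in WT 72 h (16.7% and 29.5%) and 3 and 3 in CCR2 KO 72 h (16% and 32.4%).

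**Figure D1:**
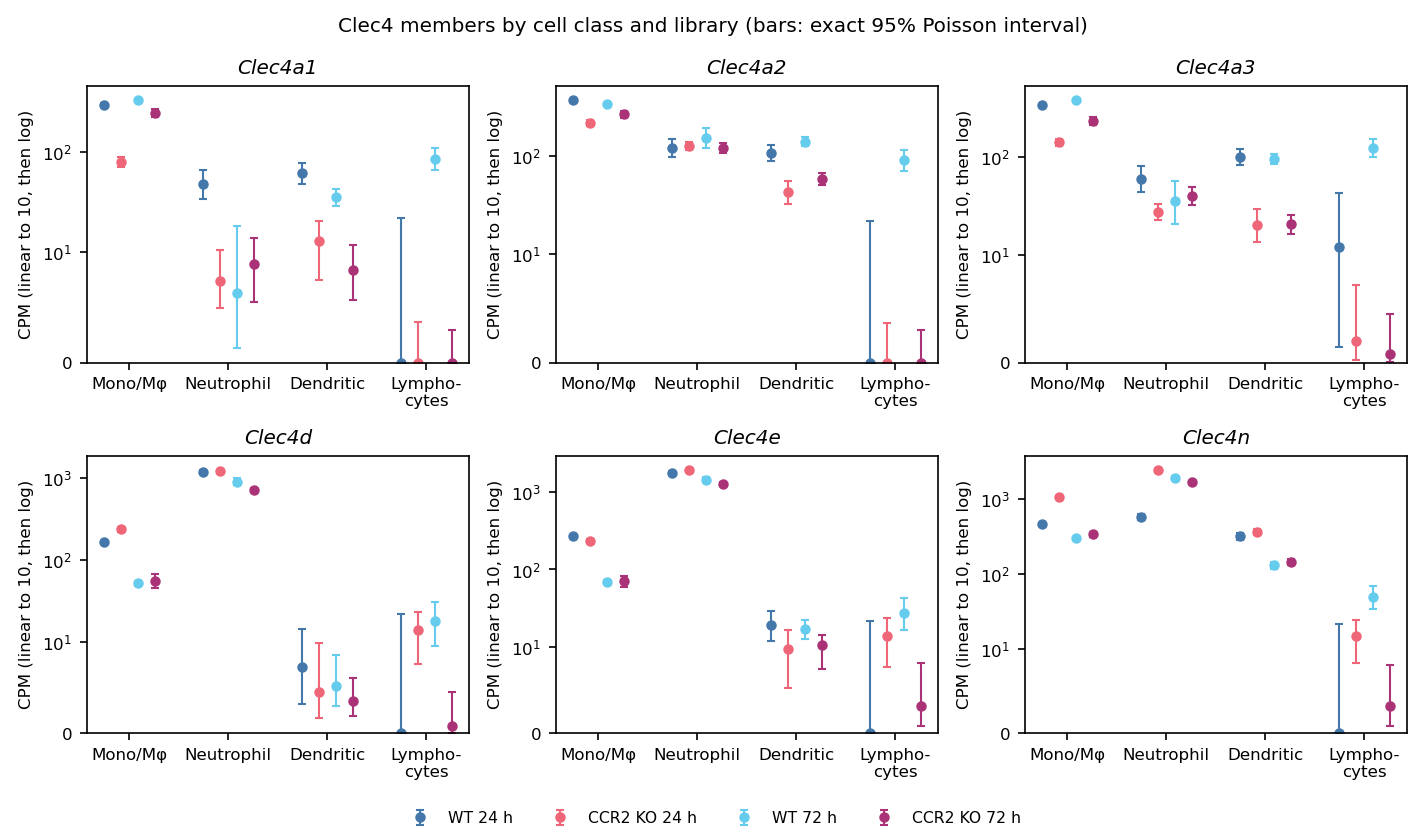
Level of each receptor in CPM (axis linear to 10, then log) in Mφ-like, neutrophil-like, DC-like and lymphocyte-like cells of the 4 libraries, with exact 95% Poisson intervals as bars. Clec4d and Clec4e lie between 713 and 1897 CPM in neutrophil-like cells of every library, and Clec4a1, Clec4a2 and Clec4a3 lie highest in Mφ-like cells of every library.

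Clec4d stood at 1168 (1092 to 1249), 1214 (1180 to 1249), 889 (806 to 978) and 713 (678 to 749) CPM in neutrophil-like cells. In Mφ-like cells the same gene stood at 165, 234, 51.3 and 55.4 CPM. No interval of a neutrophil-like level reached an Mφ-like one, and the log2 difference between the classes ran from 2.37 in CCR2 KO 24 h to 4.11 in WT 72 h. Clec4e stood at 1773 (1678 to 1871), 1897 (1855 to 1941), 1440 (1335 to 1552) and 1283 (1237 to 1331) CPM in neutrophil-like cells and at 269, 234, 69.3 and 70.0 CPM in Mφ-like cells. Its log2 difference between the classes ran from 2.72 in WT 24 h to 4.38 in WT 72 h. For both genes the 2 libraries from 24 h had overlapping intervals in neutrophil-like cells, and both libraries from 72 h lay below them.

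Clec4n stood at similar levels in both classes in 1 library and was well above Mφ-like cells in the neutrophil-like cells of the other 3. It stood at 571 (518 to 628) CPM in neutrophil-like cells of WT 24 h, against 464 (454 to 473) CPM in Mφ-like cells of the same library, a log2 difference of 0.30. In CCR2 KO 24 h the 2 levels were 2380 and 1067 CPM, in WT 72 h 1883 and 300.1 CPM, and in CCR2 KO 72 h 1664 and 339 CPM, with log2 differences of 1.16, 2.65 and 2.29. Neutrophil-like cells of WT 24 h were thus the low library for Clec4n, and the other 3 lay above them with no overlap of intervals.

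Clec4a2, the inhibitory receptor, was found in both classes of each library. It stood at 373, 219, 341 and 267 CPM in Mφ-like cells and at 121, 127, 153 and 122 CPM in neutrophil-like cells, so its log2 difference between the classes was -1.62 at most. The 4 neutrophil-like levels of Clec4a2 had overlapping intervals. Clec4a1 and Clec4a3 had a wider gap, with Clec4a1 at 303, 79.5, 332 and 249 CPM in Mφ-like cells and at 48.5, 7.35, 6.29 and 8.92 CPM in neutrophil-like cells. Clec4a3 stood at 349, 143, 387 and 238 CPM in Mφ-like cells and at 60.6, 27.4, 35.6 and 40.1 CPM in neutrophil-like cells. The 31 Mφ marker genes summed to 7710, 3409, 3141 and 2622 CPM in the same neutrophil-like cells, highest in the library in which Clec4a1 was also highest, and at WT 24 h 4 of the 31 (Flt1, Igf1, Cx3cr1 and Cd72) had no UMI there. The part of Mφ RNA in the neutrophil-like levels of Clec4a1 and Clec4a3 was not tested.

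Most UMIs of Clec4d, Clec4e and Clec4n came from Mφ-like cells in WT and from neutrophil-like cells in CCR2 KO, while Mφ-like cells supplied most UMIs of Clec4a1, Clec4a2 and Clec4a3 in all 4 libraries. Mφ-like cells supplied 91.9% of the Clec4n UMIs of WT 24 h and 26.0% of those of CCR2 KO 24 h, and neutrophil-like cells supplied 4.39% and 63.0%. At 72 h the neutrophil-like share of Clec4n UMIs was 17.9% in WT and 74.6% in CCR2 KO. For Clec4e the neutrophil-like share was 20.2% and 86.3% at 24 h and 42.5% and 93.3% at 72 h, and for Clec4d it was 21.4% and 77.9% at 24 h and 39.0% and 90.5% at 72 h. Mφ-like cells supplied 98.2%, 86.3%, 96.1% and 91.0% of the Clec4a1 UMIs, 97.2%, 58.0%, 88.5% and 52.8% of the Clec4a2 UMIs and 97.7%, 78.9%, 92.6% and 74.4% of the Clec4a3 UMIs. These shares follow class sizes as well as levels per class.

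In Mφ-like cells at 24 h, Clec4a1 and Clec4a3 were lower and Clec4n was higher in CCR2 KO than in WT, each past 2-fold. This comparison asks how the Mφ-like cells that remained without CCR2-dependent monocytes differed from those of WT. Clec4a1 differed by a log2 value of -1.93 (-2.10 to -1.76), from 303 (295 to 311) CPM in WT to 79.5 (70.6 to 89.2) CPM in CCR2 KO. Clec4a3 differed by -1.29 (-1.42 to -1.16), and Clec4a2 by -0.77 (-0.88 to -0.66), which did not reach 2-fold. Clec4n was higher, by 1.20 (1.15 to 1.26), from 464 to 1067 CPM. Clec4d was higher by 0.50 (0.39 to 0.61), from 165 to 234 CPM, and Clec4e lower by -0.20 (-0.31 to -0.10), from 269 to 234 CPM. The sign of Clec4d held in 9 of 10 alternative ways of processing, with a lowest value of -0.47. In all, 1 of 6 members was over 2-fold higher and 2 of 6 over 2-fold lower, where 2.93% of all genes compared were higher and 1.58% lower. The median log2 difference was -0.49 over the 6 members and -0.06 over all genes compared.

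The same direction was seen in the share of Mφ-like cells with a Clec4a1 UMI after each cell was thinned to 1000 UMIs. That share was 26.4% in WT 24 h, 7.94% in CCR2 KO 24 h, 27.5% in WT 72 h and 25.4% in CCR2 KO 72 h, so that CCR2 KO 24 h stood apart and the other 3 lay together. Without thinning the shares were 89.08%, 45.66%, 89.98% and 66.89%. Among lymphocyte-like cells, which should lack these receptors, the thinned share for Clec4a1 was 1.27% in WT 72 h and 0% in the other 3 libraries, where a count of 0 allows up to 11.5%, 2.34% and 2.13% of cells to have a UMI at this depth and sets no limit on cells that express the gene.

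At 72 h the gap between the genotypes in Mφ-like cells was smaller. Clec4a1 stood at 332 (322 to 343) CPM in WT and 249 (228 to 272) CPM in CCR2 KO, a log2 difference of -0.41. Clec4a2 and Clec4a3 differed by -0.35 and -0.70. The CCR2 KO intervals of all 3 lay below those of WT and none of the 3 differences reached 2-fold. Clec4n differed by 0.18 (0.06 to 0.29), where the median of all genes compared was 0.13 and 2 of 10 alternatives turned its sign (lowest -0.05), while the intervals of Clec4d (-0.19 to 0.40) and Clec4e (-0.25 to 0.27) held 0. None of the 6 members was past 2-fold, against 7.03% of genes higher and 2.99% lower.

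**Figure D2:**
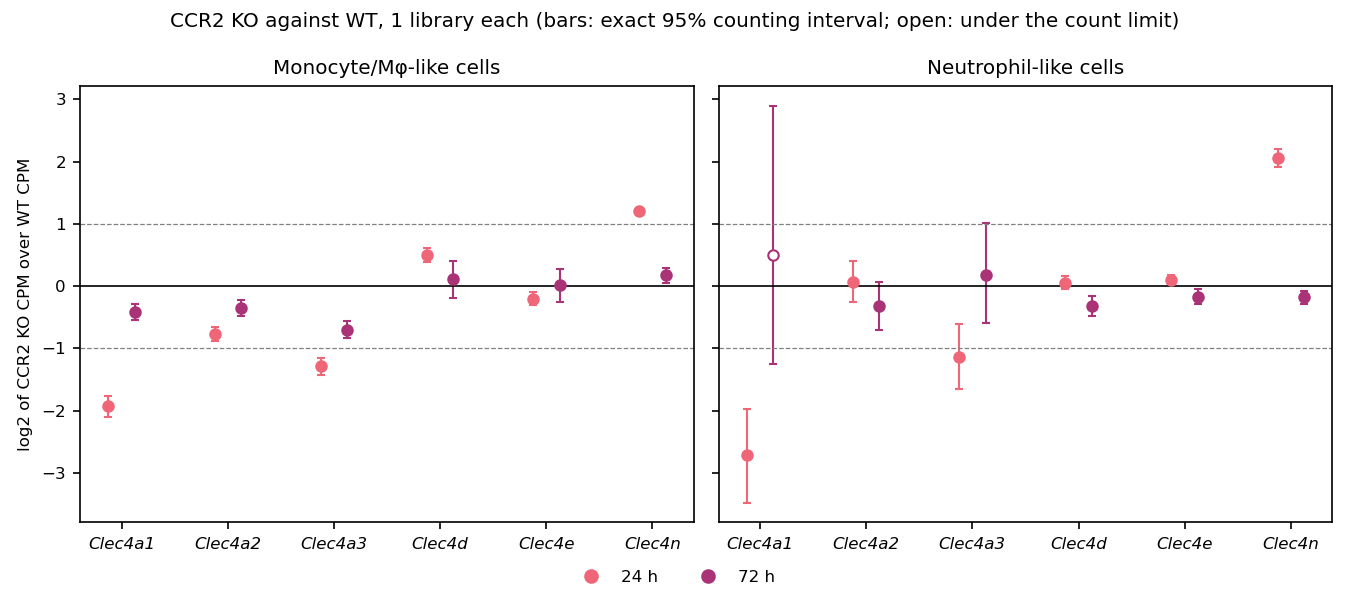
Log2 difference of CCR2 KO from WT for each receptor in Mφ-like and neutrophil-like cells at 24 h and 72 h, with exact 95% conditional binomial intervals as bars and dashed lines at 2-fold. The open circle is a value under the count limit. Clec4a1 in Mφ-like cells lies at -1.93 at 24 h and -0.41 at 72 h, and Clec4n in neutrophil-like cells at 2.06 and -0.18.

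The Mφ-like class was made of different sub-clusters in the 2 genotypes, which bears on each of these values. At 24 h the WT class was mainly Fabp5-like cells led by Pf4 and Ppbp (28.9%), Ly6c monocyte-like cells led by Cxcl10 and Isg15 (24.7%) and an unnamed sub-cluster led by Cxcl3 and Il1a (24.2%). The CCR2 KO class was mainly an unnamed sub-cluster led by Fabp4 and Inhba (34.7%) and Cx3cr1-like cells led by Mmp13 and Ch25h (24.2%). Only 4 sub-clusters held at least 20 cells of both genotypes at 24 h, and the receptors were compared inside each of them. With a separate clustering of every library, 104 of the 219 CCR2 KO Mφ-like cells of 24 h lost their class, and the class differences became 0.34 for Clec4n and -0.62 for Clec4a3, both short of 2-fold.

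Clec4a1 was lower in CCR2 KO than in WT in all 4 matched sub-clusters. It stood at 297 and 50.5 CPM in Fabp5-like cells, 280 and 35.8 CPM in Ly6c monocyte-like cells, 236 and 34.4 CPM in the Fabp4-led cells and 467 and 171 CPM in Cx3cr1-like cells, for WT and CCR2 KO in turn. The log2 differences were -2.56, -2.97, -2.78 and -1.45, none with an interval that held 0. Clec4a3 was also lower in the 4, by log2 values of -2.34, -1.42, -1.47 and -0.73, and so was Clec4a2, by -1.17, -0.45, -0.58 and -0.67. A finer clustering left 3 sub-clusters to compare, in which Clec4a1 differed by -2.49, -2.69 and -1.48 and Clec4a2 by -0.48, 0.02 and -1.06.

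Clec4n did not move in a single direction among the sub-clusters. It was higher in CCR2 KO by log2 values of 1.37 in Fabp5-like cells (362 against 932 CPM), 0.87 in Ly6c monocyte-like cells (410 against 747 CPM) and 0.45 in the Fabp4-led cells (1356 against 1858 CPM). In Cx3cr1-like cells it was lower, at 389 CPM in WT and 187 CPM in CCR2 KO, a log2 difference of -1.06. The Fabp4-led cells had the most Clec4n of the 4 in each genotype, and they made up 34.7% of CCR2 KO and 4.40% of WT Mφ-like cells. With the finer clustering Clec4n differed by 0.56, 0.21 and -0.65 in the 3 sub-clusters compared, none past 2-fold. The 1.20 of the whole class was thus not seen as a common difference inside sub-clusters.

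Clec4e behaved in a way that its class value of -0.20 did not show. It was higher in CCR2 KO in Fabp5-like cells, at 239 against 116 CPM (1.04), level in Ly6c monocyte-like cells at 146 and 147 CPM, and lower in the Fabp4-led cells, at 366 against 557 CPM (-0.61). In Cx3cr1-like cells it stood at 305 CPM in WT and 27.1 CPM in CCR2 KO, a log2 difference of -3.49. Clec4d in Cx3cr1-like cells was at 191 and 86.7 CPM (-1.14) and differed by 0.53, 0.14 and -0.05 in the other 3. The WT Cx3cr1-like sub-cluster held 25 cells and that of CCR2 KO 53, and the finer clustering put 21 of the former and 28 of the latter into 1 sub-cluster led by Mmp13 and Ccl5. In that sub-cluster Clec4e differed by -3.00 (-3.87 to -2.22), while Clec4d differed by -0.35 (-0.90 to 0.21), no longer past 2-fold and with an interval that held 0.

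**Figure D3:**
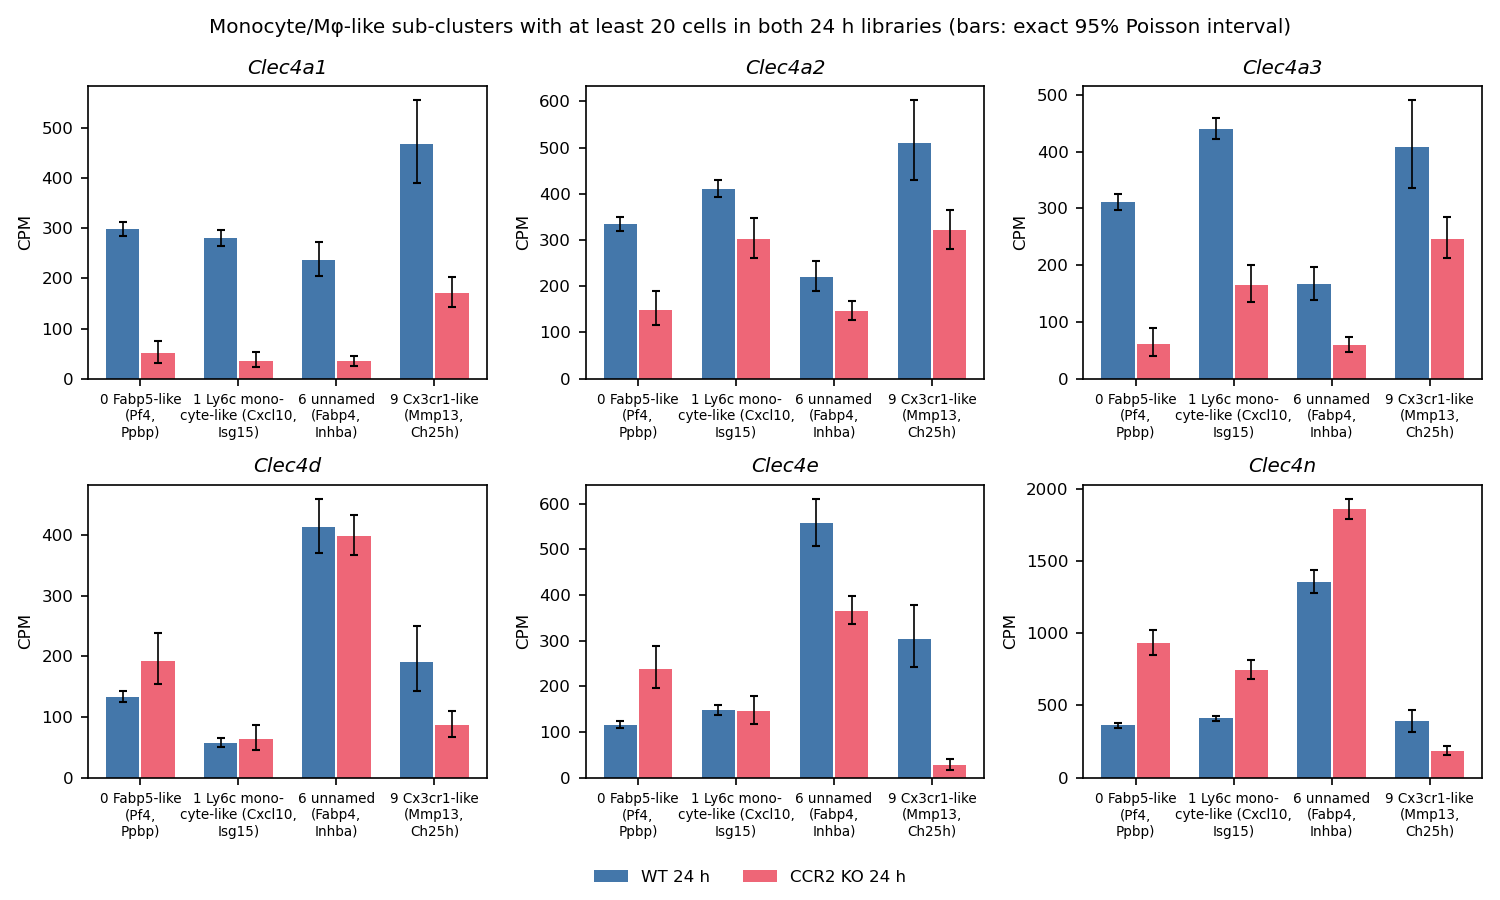
Level of each receptor in CPM (linear axis, bars from 0) at 24 h in the 4 Mφ-like sub-clusters with at least 20 cells of both genotypes, WT beside CCR2 KO, with exact 95% Poisson intervals. Clec4a1 is lower in CCR2 KO in all 4, for example 50.5 against 297 CPM in Fabp5-like cells and 171 against 467 CPM in Cx3cr1-like cells, and Clec4e is lowest in Cx3cr1-like cells of CCR2 KO.

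Between 24 h and 72 h, Clec4d and Clec4e, which share the adaptor FcRγ with Clec4n, were lower at the later time in Mφ-like cells of both genotypes. In WT, Clec4d went from 165 to 51.3 CPM and Clec4e from 269 to 69.3 CPM, log2 differences of -1.69 and -1.96. In CCR2 KO, they went from 234 to 55.4 CPM and from 234 to 70.0 CPM, differences of -2.08 and -1.74. The 13 neutrophil marker genes summed to 909, 386, 309 and 458 CPM in Mφ-like cells, and their part in these levels was not tested. Clec4n was also lower at 72 h in the class as a whole, by -0.63 in WT and -1.65 in CCR2 KO. The class was made of other sub-clusters by then: in WT, Fabp5-like cells went from 28.9% to 0% and Cd206-like cells from 0.393% to 40.0%. Of the 3 sub-clusters matched over time in WT, Clec4n was higher at 72 h in 2 and lower in 1, by between -2.13 and 3.07, Clec4d and Clec4e were each lower in 2 with the interval of the third holding 0, and none could be matched in CCR2 KO. Clec4a1 differed by 0.13 in WT and 1.65 in CCR2 KO, where it stood at 79.5 CPM at 24 h and 249 CPM at 72 h. In WT, 0 members were over 2-fold higher and 2 lower at 72 h, where 8.14% of genes were higher and 5.94% lower. In CCR2 KO, 1 member was higher and 3 lower, where 13.3% of genes were higher and 4.74% lower.

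The sub-clusters of 72 h differed in their receptors. In WT, 40.0% of Mφ-like cells were Cd206-like, with Clec4a1 at 441, Clec4a2 at 465, Clec4a3 at 490, Clec4d at 30.2, Clec4e at 24.4 and Clec4n at 337 CPM. Timp2-like cells, 14.5% of the class, had less of the first 3 and of Clec4n (257, 152, 233 and 128 CPM) and more Clec4d and Clec4e (152 and 95.1 CPM). WT Cx3cr1-like cells had 305 CPM of Clec4e at 24 h and 2.16 CPM at 72 h, the latter from 1 UMI, a log2 difference of -7.14 (-12.46 to -4.62). A finer clustering placed 21 of the 25 cells of 24 h in 1 sub-cluster and the 42 cells of 72 h in another, so this value compares different cells and not 1 population over time. In CCR2 KO at 72 h, 48.6% of the class lay in an unnamed sub-cluster led by Igha and dividing-cell genes, in which Clec4a1 was at 418 CPM in WT and 266 CPM in CCR2 KO (-0.65) and Clec4n at 245 and 318 CPM (0.38). In the only other sub-cluster matched at 72 h, led by Cxcl13 and Prg4 with 22 WT and 33 CCR2 KO cells, Clec4n was lower in CCR2 KO, at 799 and 329 CPM (-1.28). Its cells were shallow, with a median of 0.26 times the UMIs of the median Mφ-like cell of their library. In the clustering of all cells, the Mφ-like cluster led by Retnla and Prg4 held 154 WT and 34 CCR2 KO cells of 72 h. Clec4n was higher in CCR2 KO there, at 134 and 317 CPM (1.24).

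In neutrophil-like cells at 24 h, Clec4n was 4.17-fold higher in CCR2 KO than in WT, and Clec4d and Clec4e were nearly level. Clec4n stood at 571 (518 to 628) CPM in WT and 2380 (2332 to 2429) CPM in CCR2 KO, a log2 difference of 2.06 (1.92 to 2.20). Clec4d differed by 0.05 (-0.05 to 0.16) and Clec4e by 0.10 (0.01 to 0.18). The median of all genes compared was 0.12 in this comparison, and 2 of 10 alternatives turned the sign of Clec4e (lowest -0.02), so no direction is given for it. Clec4a1 and Clec4a3, at 36 and 45 UMIs in WT, differed by -2.72 and -1.15 beside the difference in Mφ marker genes given above. Among the 6 members, 1 was over 2-fold higher and 2 lower, where 7.35% of genes were higher and 2.86% lower.

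The share of neutrophil-like cells with a Clec4n UMI, after thinning to 1000 UMIs, was 32.2% (26.8 to 37.9) in WT 24 h, 70.8% (68.2 to 73.3) in CCR2 KO 24 h, 69.4% (62.2 to 76.0) in WT 72 h and 66.9% (62.8 to 70.8) in CCR2 KO 72 h. WT 24 h stood below the other 3, whose intervals overlapped. The unthinned shares were 42.5%, 84.2%, 83.2% and 84.5%, and the share in thinned lymphocyte-like cells was at most 1.27%. For Clec4d the thinned shares were 61.2%, 64.5%, 43.7% and 41.1%, and for Clec4e 67.1%, 66.1%, 57.9% and 52.4%, with the 2 libraries of each time close together.

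The Clec4n difference at 24 h was present in each of the 4 neutrophil-like clusters that had at least 20 cells of both genotypes. In the cluster led by Csf1 and Hcar2 it stood at 1005 CPM in WT and 3120 CPM in CCR2 KO (1.63), and in that led by Cxcr2 and Lrg1 at 616 and 1478 CPM (1.26). In the cluster led by Asprv1 and Chil1 it stood at 602 and 3286 CPM (2.45), and in that led by Retnlg and S100a9 at 66.5 and 804 CPM (3.60, with 13 UMIs in WT). The clusters differed in size as well. The Csf1-led one held 19.3% of WT and 48.5% of CCR2 KO neutrophil-like cells, and the Asprv1-led one 23.2% and 5.82%.

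Clec4d and Clec4e showed no single direction over the same clusters. Clec4d was lower in CCR2 KO by -0.49 in the Cxcr2-led cluster (1327 against 942 CPM) and higher by 0.76 in the Retnlg-led cluster (675 against 1144 CPM) and by 0.61 in the Asprv1-led one (1409 against 2157 CPM). Clec4e stood at 2375 and 2053 CPM in the Csf1-led cluster, 1842 and 1452 CPM in the Cxcr2-led one, 823 and 1401 CPM in the Retnlg-led one and 2283 and 3735 CPM in the Asprv1-led one. The Clec4a1 UMIs of WT neutrophil-like cells at 24 h lay mainly in the Csf1-led and Asprv1-led clusters, at 105 and 95.5 CPM (13 and 20 UMIs), against 10.1 and 5.11 CPM (2 and 1 UMIs) in the Cxcr2-led and Retnlg-led ones.

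**Figure D4:**
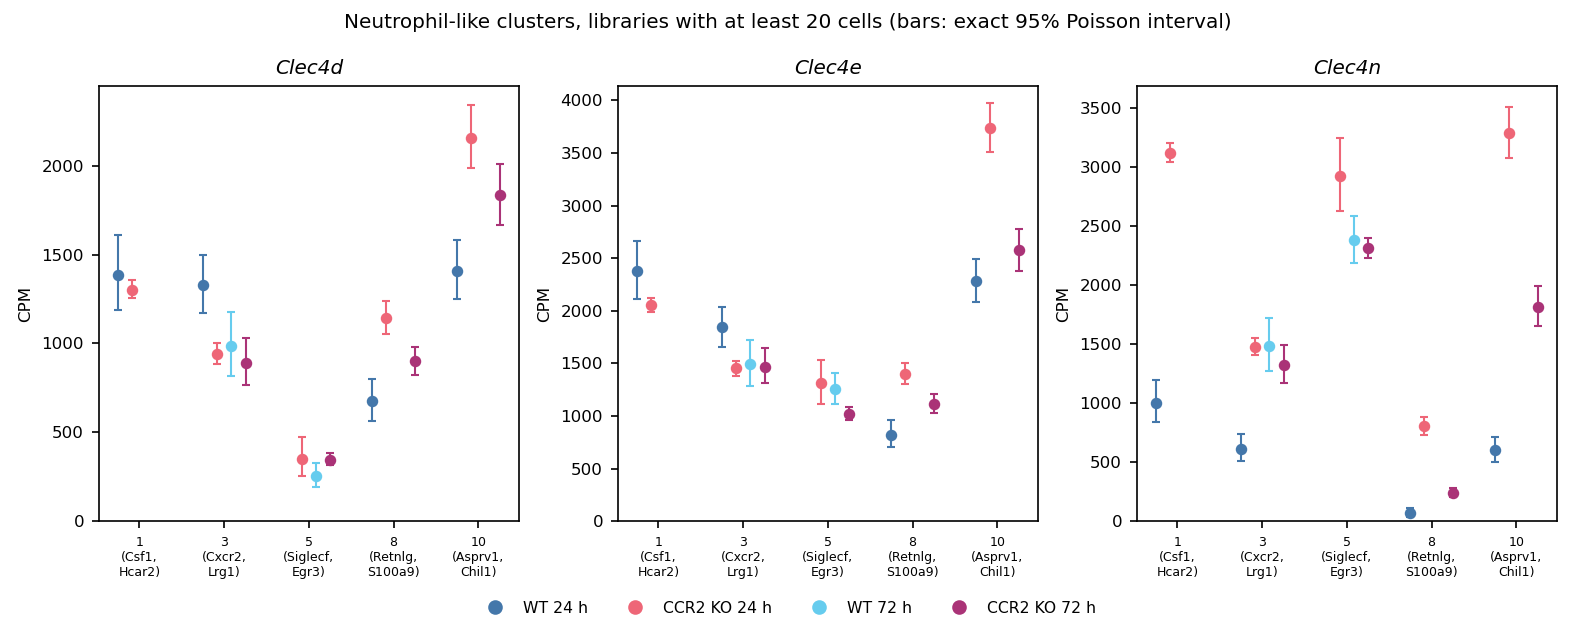
Level of Clec4d, Clec4e and Clec4n in CPM in the neutrophil-like clusters, named by 2 leading genes, for libraries with at least 20 cells, with exact 95% Poisson intervals. At 24 h Clec4n is higher in CCR2 KO than in WT in all 4 clusters compared, for example 3120 against 1005 CPM in the Csf1-led cluster.

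At 72 h the genotype gap for Clec4n in neutrophil-like cells was small and had the other sign. Clec4n stood at 1883 (1762 to 2010) CPM in WT and 1664 (1611 to 1718) CPM in CCR2 KO, a log2 difference of -0.18 (-0.28 to -0.07). Clec4d differed by -0.32 (-0.47 to -0.16) and Clec4e by -0.17 (-0.29 to -0.04). Each of these 2 kept its sign in 9 of 10 alternatives, with highest values of 0.37 for Clec4d and 0.11 for Clec4e. None of the 5 members compared was past 2-fold, where 5.85% of genes were higher and 2.03% lower, and Clec4a1, with 3 UMIs in WT, was not compared. By then 55.5% of WT and 64.8% of CCR2 KO neutrophil-like cells lay in a cluster led by Siglecf, which held 3.59% and 4.23% at 24 h. The study used Siglec-F as a marker of eosinophils, so the cluster was checked against both marker lists. At 72 h its 13 neutrophil markers summed to 31345 CPM in WT and 27767 CPM in CCR2 KO, below the 117390 and 184154 CPM of the other neutrophil-like clusters. In WT, Ly6g, Mmp8 and Retnlg stood at 0, 0 and 4.32 CPM in it, against 106, 293 and 4396 CPM in the others. Mmp9, Il1r2 and Hdc were the 3 markers higher in it in WT, at 3295, 1886 and 2141 CPM against 1929, 1624 and 2015 CPM. Of 6 eosinophil markers with a count row, Siglecf stood at 688 and 542 CPM, Ccr3 at 4.32 and 3.40 CPM, and Prg2, Il5ra, Ear1 and Ear6 had no UMI. The class name of these cells was not stable: with finer clustering the neutrophil-like class of 72 h went from 191 and 580 to 87 and 242 cells, which bears on each neutrophil-like value of 72 h. In that cluster Clec4n was at 2379 CPM in WT and 2311 CPM in CCR2 KO (-0.04). Clec4d was at 255 and 347 CPM there (0.44, 0.05 to 0.86), the opposite sign to its class value. Leaving this cluster out, a choice made after seeing the data, gave a Clec4n difference of -0.58 at 72 h, and a separate clustering of every library gave -1.20 with 415 of 580 CCR2 KO cells losing their class.

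With time, Clec4n ran in opposite directions in the 2 genotypes, a difference that was not tested. In WT neutrophil-like cells it was higher at 72 h by a log2 value of 1.72, and in CCR2 KO it was lower by -0.52. In the Cxcr2-led cluster, the only neutrophil-like one with enough WT cells at both times, Clec4n went from 616 to 1483 CPM in WT (1.27) and from 1478 to 1324 CPM in CCR2 KO (-0.16). In CCR2 KO 4 clusters could be matched over time, and Clec4n differed in them by between -1.74 and -0.16. It was lower in 3 of the 4 with an interval that did not hold 0. Clec4d was lower at 72 h by -0.39 in WT and -0.77 in CCR2 KO, and Clec4e by -0.30 and -0.56. The Siglecf-led cluster went from 4.23% to 64.8% of CCR2 KO neutrophil-like cells over this time. Its Clec4d stood at 347 CPM in CCR2 KO at 72 h, against 889 CPM in the Cxcr2-led cluster. Inside the 4 clusters matched over time in CCR2 KO, Clec4d differed by between -0.35 and -0.02 and Clec4e by between -0.54 and 0.02. In the Cxcr2-led cluster of WT they differed by -0.43 and -0.30. Over the same interval 26% of genes in WT were over 2-fold higher and 5.02% lower, with 28.6% and 3.13% in CCR2 KO, and the median of all genes lay at 0.47 and 0.51. Of the members, 1 was past 2-fold higher (Clec4n) and 1 lower (Clec4a1, from 36 to 3 UMIs) in WT and none of 5 in CCR2 KO.

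Clec4d and Clec4e UMIs were often found in the same neutrophil-like cell. After thinning, both were seen in 43.7%, 44.4%, 24.6% and 26% of neutrophil-like cells. In WT 24 h, 71.4% of the cells with Clec4d and 60.4% of those without it had Clec4e. In CCR2 KO 24 h these shares were 68.8% and 61.3%, in WT 72 h 56.3% and 59.2%, and in CCR2 KO 72 h 63.3% and 44.8%. The gap was widest in CCR2 KO 72 h and ran the other way in WT 72 h. Clec4e and Clec4n were seen together in 25.9%, 46.3%, 43.2% and 34.5% of the cells, lowest in the library in which Clec4n was low.

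In DC-like cells Clec4n was lower at 72 h than at 24 h in both genotypes. It stood at 316 (284 to 351), 356 (325 to 390), 131 (118 to 145) and 143 (131 to 156) CPM, so the 2 genotypes overlapped at each time and the later time was lower by -1.27 in WT and -1.31 in CCR2 KO. Clec4d was at most 7.25 CPM and Clec4e at most 19.03 CPM. In the class as a whole, Clec4a1, Clec4a2 and Clec4a3 were lower in CCR2 KO at both times. The differences were -2.28, -1.33 and -2.32 at 24 h and -2.10, -1.27 and -2.22 at 72 h. Of 5 members compared between genotypes, 3 were over 2-fold lower at each time and none higher, where 4.91% of genes were higher and 4.29% lower at 24 h, and 1.84% higher and 3.71% lower at 72 h. From 24 h to 72 h, Clec4n was the 1 of 5 members past 2-fold in each genotype, where 7.54% of genes were higher and 2.43% lower in WT and 6.13% higher and 3.5% lower in CCR2 KO. The DC-like class gained cells of a cluster led by Xcr1 and dividing-cell genes, from 7 and 6 cells of WT and CCR2 KO at 24 h to 63 and 62 at 72 h. Inside the other DC-like cluster, led by Ccl17 and Cd209a, the change of Clec4n was -0.95 in WT and -0.48 in CCR2 KO, neither past 2-fold. At 72 h Clec4n was higher in CCR2 KO by 0.54 in the Ccl17-led cluster and lower by -0.88 in the Xcr1-led one, directions that the class value of 0.13 did not show. For Clec4a1, Clec4a2 and Clec4a3 the 72 h gap was narrower in the Ccl17-led cluster than in the Xcr1-led one. In the former they stood at 22.1, 134 and 91.3 CPM in WT and 14.5, 71.3 and 32.2 CPM in CCR2 KO. Intervals of Clec4a1 overlapped there and Clec4a2 did not reach 2-fold. In the Xcr1-led cluster the levels were 47.1, 146 and 99.3 CPM and 3.75, 48.3 and 11.7 CPM. At 24 h all 3 were over 2-fold lower in the Ccl17-led cluster. The 31 Mφ marker genes summed to 4535 and 2700 CPM in WT and CCR2 KO DC-like cells at 24 h and to 7705 and 1952 CPM at 72 h, and the part of Mφ RNA in the Clec4a differences was not tested.

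In lymphocyte-like cells Clec4a1, Clec4a2 and Clec4a3 were near the limit of detection in 3 libraries and present in WT 72 h. Clec4d, Clec4e and Clec4n were present in CCR2 KO 24 h as well, at 13.9, 13.9 and 14.9 CPM. In WT 72 h these last genes stood at 17.8, 27.4 and 49.4 CPM. Clec4a3 stood at 11.9, 1.99, 126 and 0.799 CPM. Clec4a1 stood at 86.4 (66.4 to 110.5) CPM in WT 72 h and had no UMI in the other 3 libraries, which allows up to 17.8, 2.98 and 2.40 CPM. The Mφ marker genes summed to 17693 CPM in these WT 72 h cells and to between 1020 and 1145 CPM in the other 3 libraries, and their part in these levels was not tested.

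Of the signalling genes downstream of the receptors, 1 was past 2-fold between genotypes at 24 h in Mφ-like cells and none in neutrophil-like cells. Of all genes compared, 2.93% were higher and 1.58% lower in the former, and 7.35% and 2.86% in the latter. Among the 11 adaptors and kinases compared, which include Fcer1g (3170 and 3134 CPM in Mφ-like cells of WT and CCR2 KO) and Syk (113 and 94.4 CPM), none was past 2-fold in Mφ-like or in neutrophil-like cells. Of 9 genes around the Card9 module, Malt1, its protease, was past 2-fold in Mφ-like cells, at 58.4 CPM in WT and 189 CPM in CCR2 KO (1.70), and none was in neutrophil-like cells. The 3 phosphatase genes that inhibitory receptors such as Clec4a2 recruit were within 2-fold in both classes, with Ptpn6 at 313 and 251 CPM in Mφ-like cells.

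Of the genes known to be induced through this pathway, 5 of 11 compared in Mφ-like cells at 24 h were over 2-fold higher in CCR2 KO and none lower, where 2.93% of all genes were higher and 1.58% lower. They were the chemokines Ccl3 (702 and 1501 CPM) and Ccl4 (776 and 2227 CPM), the transcription factors Egr1 (140 and 346 CPM) and Egr2 (52.7 and 146 CPM), and the cytokine Tnf (60.5 and 133 CPM). The chemokine genes Cxcl1 (30.96 and 29.99 CPM) and Cxcl2 (1417 and 1664 CPM) of the same list were within 2-fold. Ccl4 was also a leading gene of the Fabp4-led sub-cluster, which made up 34.7% of CCR2 KO and 4.40% of WT Mφ-like cells. Neither the genes of this list nor Malt1 were compared inside sub-clusters, and signalling through the receptors was not tested. In neutrophil-like cells 2 of 13 were higher, Cxcl1 (17.5 and 40.8 CPM) and Egr2 (95.6 and 244 CPM), and 1 was lower, Nos2 (51.1 and 5.07 CPM). Of all genes compared there, 7.35% were higher and 2.86% lower. At 72 h in Mφ-like cells, 1 of 11 was higher and 4 were lower, where 7.03% of all genes were higher and 2.99% lower. Among the 4 were Ccl3 (375 and 167 CPM) and Ptgs2 (54.7 and 13.6 CPM).

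Other C-type lectins in Mφ-like cells showed their own pattern. At 24 h, 4 of 10 were over 2-fold higher in CCR2 KO and none lower, where 2.93% of all genes were higher and 1.58% lower. Among the 4, Mgl2, a galactose-binding lectin of macrophages and DCs, stood at 19.1 CPM in WT and 215 CPM in CCR2 KO. Clec5a, a receptor that pairs with DAP12, stood at 63.0 and 129 CPM. At 72 h none was higher and 5 of 10 were lower, where 7.03% of all genes were higher and 2.99% lower. Among the 5 were Clec10a (201 and 67.6 CPM) and Clec12a (287 and 127 CPM). In WT between 24 h and 72 h, 6 of 10 were higher and none lower, where 8.14% of all genes were higher and 5.94% lower. Mgl2 stood at 19.1 and 280 CPM, a direction that neither Clec4d nor Clec4e followed. In neutrophil-like cells at 24 h, 2 of 5 were higher in CCR2 KO and none lower: Clec12a, an inhibitory lectin, at 40.4 and 202 CPM and Clec4b2, a neighbour of the same gene cluster, at 2.69 and 14.7 CPM.

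Over 19 points, each a class of 1 library, the levels of the other genes were correlated with each receptor as a description. The points share libraries and depth. Clec4a1 was most like Rin2 (r = 0.96), Clec4a3 (0.95) and Lyz2 (0.95), and Clec4a2 most like Cd302, Wdfy3 (0.99) and Csf1r (0.98). Clec4d was most like Csf3r, the G-CSF receptor of neutrophils, Ninj1 (both 0.96) and Hp (0.95), and Clec4e most like Tnfaip2 (0.96), Smox (0.96) and Rnf149 (0.95). Clec4n was most like Nlrp3, an inflammasome sensor (0.97), Ccr1 (0.96) and Wfdc17 (0.95). Clec4d and Clec4e had an r of 0.93 with each other, and Clec4d and Clec4a1 one of 0.34.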

How the data were processed

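CD45+ cells were sorted and sequenced with the 10x Genomics 3′ v3 chemistry. Per the labels and the study's methods, the authors aligned reads to GRCm38 (mm10) with Cell Ranger 3.0.2, used Seurat, and removed cells with under 200 genes or over 10% mitochondrial reads. The deposited values are raw UMI counts per gene and cell, 1 table per library, with no normalisation. Clec7a was not analysed here, so medians run over 6 members and not 7. The members and all gene lists were chosen with earlier results of these data known. The genes named in the text were the members, genes of 5 pathway lists of which any could be named, and, for each member, the 3 genes with the highest Pearson r of log2(CPM + 1) over classes of at least 20 cells.

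From the counts, cells of the 4 libraries were log-normalised, reduced to 30 principal components and clustered (Scanpy 1.11.5, leidenalg 0.10.2, resolution 1). A cluster was assigned to a class by its marker genes. UMIs were then summed per library and class. Levels are CPM of the class, with exact Poisson intervals; ratios have exact conditional binomial intervals; shares have exact Clopper-Pearson intervals. Genes with at least 10 CPM in 1 of the 2 groups and at least 20 UMIs in all were compared. UMI totals of 9736725 to 21206308 per library set the counting precision. A doublet caller (Scrublet) marked 11 of 5798 cells, under the share at which it can be taken to have worked, so doublets were not removed. Of the cells, 519 had 2 marker scores within 0.1 of each other. The calculation of ratios was checked on simulated counts with counting error only, with 200 of 200 changed genes recovered. The planted changes were larger than 2-fold and in well-counted genes, so this check did not cover small changes, low counts or variation between libraries. Normalisation was varied with edgeR 4.0.16 (R 4.3.3). Python 3.11.15, numpy 2.4.6, pandas 2.3.3 and scipy 1.17.1 were used. Promoter sequences came from RefSeq on GRCm38.p6, which matched 5 of the 7 members.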

Additional observations from a re-analysis of the deposited data

Results flagged for a closer look

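In neutrophil-like cells the difference between CCR2 KO and WT had opposite signs at the 2 times for 2 receptors, with intervals that did not hold 0 at either time. Clec4n differed by a log2 value of 2.06 at 24 h and -0.18 at 72 h, and Clec4e by 0.10 at 24 h and -0.17 at 72 h. The 24 h value of Clec4e changed sign in 2 of 10 alternatives (range -0.02 to 0.28), and that of Clec4n ran from 1.86 to 2.25. At 72 h Clec4e kept its sign in 9 of 10 alternatives (range -0.39 to 0.11) and Clec4n in all 10 (-1.20 to -0.04). The difference between the times was not tested, since there was 1 library per group. In all, 18 pairs of effects were compared between 24 h and 72 h and 2 had opposite signs in this way.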

How the results depend on the processing

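No paired analysis was possible because each group was 1 library and the labels carry no replicate numbers. Alternatives were run for 36 comparisons of members, between genotypes in Mφ-like and neutrophil-like cells and over time in Mφ-like cells, of which 12 were past 2-fold. None were run over time in neutrophil-like cells, where Clec4n (1.72) and Clec4a1 (-2.95) in WT were past 2-fold. None were run in DC-like cells either, where Clec4a1, Clec4a2 and Clec4a3 between genotypes and Clec4n over time were past 2-fold. Of the comparisons with alternatives, all 12 past 2-fold kept their sign in the 10 alternatives and 8 stayed past 2-fold in all of them. The 4 that did not were Clec4n and Clec4a3 in Mφ-like cells at 24 h (0.34 and -0.62 with every library clustered separately), Clec4n over time in CCR2 KO Mφ-like cells (-0.78, same alternative) and Clec4e over time in those cells (-0.91 with the mean CPM per cell). The median over members in Mφ-like cells moved from -0.49 to -0.60 with TMM and -0.61 with cells thinned to 1000 UMIs at 24 h, and from -0.17 to -0.58 with separate clustering at 72 h. Over time it moved from -0.38 to -0.54 (TMM) and -0.30 (separate clustering) in WT, and from -0.68 to -0.86 (median of ratios), -0.91 (TMM), -0.41 (mean CPM per cell) and -0.41 (separate clustering) in CCR2 KO. The cause of these shifts was not tested. In neutrophil-like cells at 24 h the median ran from -0.11 to 0.14.

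With all genes of at least 1 UMI compared in place of the count limit, more genes passed 2-fold because the added genes have few UMIs. In Mφ-like cells the numbers higher and lower became 2082 and 2254 (from 223 and 120) for CCR2 KO against WT at 24 h, 2149 and 2810 (from 586 and 249) at 72 h, 3596 and 1498 (from 649 and 474) over time in WT, and 3016 and 1903 (from 1101 and 393) over time in CCR2 KO. In neutrophil-like cells they became 3757 and 1150 (from 421 and 164) at 24 h and 3374 and 1025 (from 415 and 144) at 72 h. The depth of single cells limits what a share of cells can show, and 1 library per group limits every difference.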

Other observations

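A cluster left without a class, led by Rab15, Gdf15 and Mreg, held 93 cells, 81 of them from CCR2 KO at 24 h. Those 81 cells had Clec4n at 4586 (4325 to 4860) CPM, Clec4d at 1938 CPM and Clec4e at 1187 CPM, and no UMI of Clec4a1, which allows up to 12.0 CPM. Clec4n was thus higher there than in any named class of that library. With that library clustered alone, a cluster led by Rab15 and Gdf15 was named neutrophil-like. In the same clustering, 81 of the 106 unnamed cells of the library took the neutrophil-like name.

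In Mφ-like cells of CCR2 KO, 10 of 12 genes known to be induced downstream of these receptors were over 2-fold lower at 72 h than at 24 h and 1 was higher, where 4.74% of all genes were lower and 13.3% higher. The sub-clusters of this class changed over the same time, with the Fabp4-led cells at 34.7% and 0% and the dividing cells at 0.457% and 48.6% of it. In WT 3 of 11 were lower, Cxcl1, Cxcl2 (1417 and 420 CPM) and Il6, where 5.94% of all genes were lower and 8.14% higher.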
